A study of Mus musculus with 9 samples.

Results

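Bone marrow-derived macrophages given IL-4 or IL-27 were set together against untreated cells, to find what the 2 cytokines changed in the same direction. The contrast took the mean of the IL-4 and IL-27 groups, each weighted equally, against the untreated group, and used all 9 libraries of the series and all 16200 genes of its count table. All cells were wild type (WT in the labels) and had been cultured for 6 days with supernatant of L929 cells, a fibroblast line whose medium supplies macrophage growth factor. The 3 untreated libraries are labelled NC, the 3 IL-4 libraries had 20 ng/ml for 12 h and the 3 IL-27 libraries had 100 ng/ml for 6 h. Dose and time differ between the cytokines, so a difference between them cannot be told apart from a difference in dose or time. The treatment text is shared by all samples and does not say whether cells given IL-27 also had IL-4. Strain, age and sex of the mice were not given in the sources used here. The series design speaks of replicate experiments without saying whether these were different mice or dishes, and the p-values below therefore describe how libraries vary, possibly for technical reasons alone.

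IL-4 acts through the IL-4 receptor and STAT6, and is the classical inducer of alternative activation in macrophages, a state marked by Arg1, Chil3 and Retnla. IL-27 acts through a receptor of Il27ra and Il6st (gp130), and induces interferon-type genes. Both pathways are restrained by suppressors of cytokine signalling such as Socs1.

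Libraries held 34577188 to 37951827 counts, and 12587 genes had enough counts to test. Levels are given as CPM, counts scaled to library size with TMM factors, for the 3 libraries of a group in the order of their replicate numbers, and fold changes are on the log2 scale ± their standard error. Where 2 of them stand together without a label, the first is for IL-4 and the second for IL-27. The 8 defining macrophage markers were present in every library, with a summed level of 23089 to 31846 CPM in untreated, 14828 to 18545 CPM in IL-4 and 24448 to 26520 CPM in IL-27 libraries. Fibroblast markers summed to 728 to 827 CPM in untreated, 559 to 759 CPM in IL-4 and 1091 to 1370 CPM in IL-27 libraries, and their part in the results was not tested. In bulk RNA, fewer cells of a type and less RNA per cell cannot be told apart. Markers of T and NK, B, neutrophil and erythroid cells summed to at most 14.1 CPM in any library. Those of mast cells, basophils and eosinophils summed to 40.8 to 44.1 CPM in untreated, 36.1 to 49.5 CPM in IL-4 and 16.4 to 19.8 CPM in IL-27 libraries. Dendritic cell markers came to 66.4 to 101 CPM, 78.7 to 113 CPM and 76.8 to 78.6 CPM in the same order, and the part of these cells was not tested either. Bst2, at 59.3 to 107 CPM, made up most of the dendritic sum, and 5 of those 10 markers were under 1 CPM in all libraries. Siglecf, at 14.4 to 47.1 CPM, made up most of the mast cell, basophil and eosinophil sum. Untreated replicate 2 and IL-4 replicate 1 stood apart from the rest of their groups, with a chi-square of 94.5 to 119 per gene in pairs holding one of them against 5.48 to 9.004 in the other pairs. Their deviations from their group means moved together (r = 0.900 over 9553 genes, which are not independent). Both libraries stayed in the tests, and counts without both are given where they moved by over 1.5 times.

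In the mean of both cytokines, 1176 genes were higher (9.34% of those tested) and 1349 lower (10.7%), by edgeR's quasi-likelihood test with a Benjamini-Hochberg adjusted p under 0.05. A gene can pass in the mean through 1 cytokine alone, so each cytokine was also tested by itself against the same 3 untreated libraries. Higher under IL-4 alone were 1630 genes (12.9%) and lower 1515 (12%), and IL-27 alone raised 1766 (14%) and lowered 1904 (15.1%). A gene is called higher or lower under each cytokine where the mean and both single comparisons passed in that direction. By this rule 407 genes were higher under each (3.23% of genes tested) and 471 lower under each (3.74%). These shares are the background for the counts in gene lists below. The 2 single comparisons share their untreated libraries, so a chance deviation of those libraries moves both, and the number of shared genes is a description only. Without untreated replicate 2 and IL-4 replicate 1, 2639 genes were higher and 2622 lower in the mean. The shared genes then numbered 1014 higher and 1082 lower, and 395 of the 407 and 458 of the 471 were among them. Of 12574 genes tested both with and without these 2 libraries, 1011 were then higher and 1079 lower under each. That is the background for list counts without these libraries. Without IL-4 replicate 3 alone, 312 genes were lower under each.

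**Figure D1:**
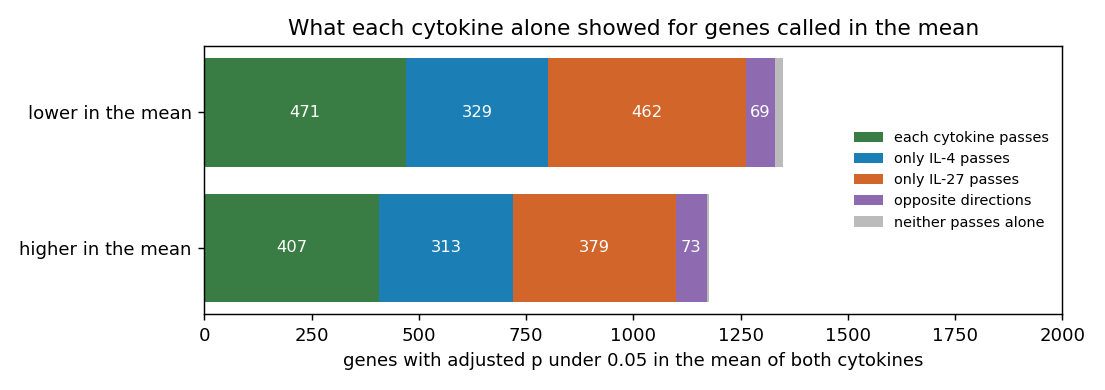
Genes higher (lower bar) and lower (upper bar) in the mean of both cytokines, split by what each cytokine showed against untreated alone; the x axis is the number of genes with an edgeR adjusted p under 0.05. Of 1176 higher genes 407 passed under each cytokine and 73 went in opposite directions, and of 1349 lower genes 471 and 69.

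Of the genes higher in the mean, 313 passed for IL-4 only and 379 for IL-27 only, 73 passed in opposite directions and 4 for neither, so that fewer than the 1176 are changes under each cytokine. The corresponding numbers for the 1349 lower genes were 329, 462, 69 and 18. Shared changes were mostly moderate. The 407 higher genes had a median log2 fold change of 0.73 under IL-4 and 0.69 under IL-27, and the 471 lower genes -0.74 and -0.83. At least 2-fold under each cytokine were 75 higher and 102 lower genes. All 6 treated libraries lay above all 3 untreated for 402 of the 407 and below for 466 of the 471 (5.89% and 7.28% of genes tested did so), which follows from how these genes were chosen. Between IL-27 and IL-4 themselves, 159 of the 407 and 156 of the 471 differed by the direct test (39.8% of genes tested did so). Without untreated replicate 2 and IL-4 replicate 1 these were 545 of the 1014 and 539 of the 1082. The 39.8% is for all 9 libraries and is no background for those counts, whose own is not given here. The rise was larger under IL-27 for 75 of those 159 and under IL-4 for 84, and the fall was larger under IL-27 for 93 of the 156 and under IL-4 for 63. Without any 1 library in turn, 214 of the 407 and 234 of the 471 kept their call every time.

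Genes of amino acid supply were among those higher under both cytokines, from the transcription factor Atf4 through amino acid transport and synthesis to tRNA charging. Atf4 is translated when amino acids are short or the endoplasmic reticulum is under stress, and its protein induces Asns, Trib3, Chac1 and other genes. Of 30 tested members of the list for the unfolded protein and ATF4 response, 6 were higher under each cytokine, 0 lower and 2 higher under IL-4 but lower under IL-27, and the median log2 fold change was 0.28 for IL-4 and 0.21 for IL-27. Over all genes tested these medians were -0.01 and 0.00. The 6 were Asns, Trib3, Slc7a5, Chac1, Atf5 and Atf4, and all kept their call without any 1 library.

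Promoters of 4 of the genes described next are shown because each holds, within 250 bases before its start, a match to TGATGNAA, the core of the C/EBP-ATF response element that ATF4 is known to bind. The motif was chosen after the values were seen and was searched on both strands, and capitals mark the match. Sequences are 5′ to 3′ on the gene's strand, from RefSeq (GRCm38.p6, an older build than the GRCm39 of the counts), and end at the base before the start.
Asns, chr6:7693210-7693459 (- strand): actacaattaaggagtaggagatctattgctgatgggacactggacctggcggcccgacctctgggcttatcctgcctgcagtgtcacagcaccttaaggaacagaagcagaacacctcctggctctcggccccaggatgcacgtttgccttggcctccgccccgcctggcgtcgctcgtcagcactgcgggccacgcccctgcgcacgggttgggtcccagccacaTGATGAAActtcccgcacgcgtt
Chac1, chr2:119350992-119351241 (+ strand): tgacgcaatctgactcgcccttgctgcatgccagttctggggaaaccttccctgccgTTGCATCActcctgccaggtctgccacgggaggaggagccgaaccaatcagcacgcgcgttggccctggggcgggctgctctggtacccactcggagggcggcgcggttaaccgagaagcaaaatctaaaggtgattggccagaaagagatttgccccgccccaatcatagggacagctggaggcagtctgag
Aars, chr8:111033592-111033841 (+ strand): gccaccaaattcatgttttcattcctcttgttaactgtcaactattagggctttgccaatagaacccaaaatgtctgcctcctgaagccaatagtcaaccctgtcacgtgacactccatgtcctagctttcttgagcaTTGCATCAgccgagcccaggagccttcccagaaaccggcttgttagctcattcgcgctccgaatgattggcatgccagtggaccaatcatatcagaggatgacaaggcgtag
Tars, chr15:11399659-11399908 (- strand): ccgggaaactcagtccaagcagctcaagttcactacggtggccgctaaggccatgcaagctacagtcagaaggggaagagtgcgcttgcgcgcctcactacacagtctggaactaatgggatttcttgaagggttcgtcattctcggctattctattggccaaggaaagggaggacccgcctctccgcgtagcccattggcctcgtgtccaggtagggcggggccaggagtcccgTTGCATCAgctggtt
The match began 23 bases before the start in Asns, 193 in Chac1, 112 in Aars and 15 in Tars. The search left out the RefSeq promoters of a chromosome and counted a sequence repeated within a gene once. In windows from 250 bases before to 50 after the start, 3.97% of the 32851 promoters searched held the motif. Of the 12890 promoters of tested genes 2.28% held it. It was in 26 of 414 promoters (6.28%) of genes higher under each cytokine and in 2.5% of those of genes lower under each. Among list members higher under each, 3 of 6 promoters of the ATF4 list held it. So did 5 of 10 of the aminoacyl-tRNA synthetases and 0 of 11 of the serine and one-carbon genes, both described below. Matched by symbol to a promoter searched were 331 of the 407 and 386 of the 471 genes. Other motifs searched were the STAT site TTCNNNGAA, in 7.73% of the promoters of higher genes and 6.87% of those of tested genes, and the same site with 1 more N, in 5.56% and 5.48%. The E-box CACGTG, a sequence that Myc and other basic helix-loop-helix factors bind, was in 15.5% of promoters of higher, 5.77% of lower and 9.81% of tested genes. These are matches of letters, which do not show a bound site.

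Asns, which makes asparagine, stood at 9.18, 9.37 and 11.6 CPM untreated, 37.99, 40.3 and 40.4 CPM with IL-4 and 107, 102 and 109 CPM with IL-27. All 6 treated libraries were above the untreated ones, and the rise was 1.98 ± 0.11 under IL-4 (edgeR adjusted p = 1.92e-06) and 3.40 ± 0.11 under IL-27 (edgeR adjusted p = 1.36e-07). Trib3, a pseudokinase induced by ATF4 that restrains it, was at 4.17, 3.73 and 4.102 CPM untreated, 16.3, 11.2 and 12.6 CPM with IL-4 and 82.2, 77.00 and 73.7 CPM with IL-27. That is 3.33-fold higher under IL-4 and 19.4-fold higher under IL-27, and the 2 cytokines differed by 2.54 ± 0.14 (edgeR adjusted p = 5.75e-07). Chac1, which degrades glutathione, was at 1.64, 1.596 and 1.95 CPM untreated, 5.54, 2.87 and 3.84 CPM with IL-4 and 21.6, 16.8 and 18.6 CPM with IL-27. Its lowest IL-4 library lay at 2.87 CPM, above the highest untreated library at 1.95 CPM. Atf4 itself rose by 0.73 ± 0.07 under IL-4 and 1.88 ± 0.07 under IL-27, from 129.6 ± 3.09 CPM (SD, n = 3) to 215 ± 7.26 and 477 ± 12.6 CPM. Atf5, a related factor, rose from 42.00 ± 1.46 to 94.2 ± 13.1 and 134 ± 7.61 CPM. Of these 6 genes each had the higher level under IL-27, and the direct test between cytokines passed for each (largest edgeR adjusted p = 0.00401, for Atf5).

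Aminoacyl-tRNA synthetases, the enzymes that join each amino acid to its tRNA, were listed after the values had been seen, so their count describes the data and tests nothing. Of 23 tested members 14 were higher under each cytokine and 0 lower, with a median log2 fold change of 0.70 under IL-4 and 0.94 under IL-27, and all 14 kept their call without any 1 library (17 higher and 1 lower without the libraries that stand apart). Of the 14, 13 are synthetase genes and the other is Eef1e1, an auxiliary protein of the multi-synthetase complex. Yars, for tyrosine, stood at 22.7, 26.6 and 22.99 CPM untreated, 64.9, 51.9 and 56.6 CPM with IL-4 and 88.5, 85.1 and 77.7 CPM with IL-27. The 3 groups did not overlap, and the fold was 2.398 under IL-4 and 3.47 under IL-27. Aars, for alanine, rose by 0.93 ± 0.15 under IL-4 and by 1.95 ± 0.15 under IL-27 (edgeR adjusted p = 0.00136 and 1.20e-05), to 183 ± 34.6 and 371 ± 5.81 CPM from 96.1 ± 15.8 CPM. Rars, for arginine, was at 61.3 ± 4.396 CPM untreated, 139.8 ± 7.88 CPM under IL-4 and 125 ± 2.84 CPM under IL-27, and the cytokines did not pass the direct test (-0.16 ± 0.09, edgeR adjusted p = 0.161). Sars, for serine, had the smallest IL-4 rise of the 13, 0.34 ± 0.08 (edgeR adjusted p = 0.0138), beside 1.05 ± 0.08 under IL-27. Tars, for threonine, rose by 0.74 ± 0.09 and 1.09 ± 0.09.

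**Figure D2:**
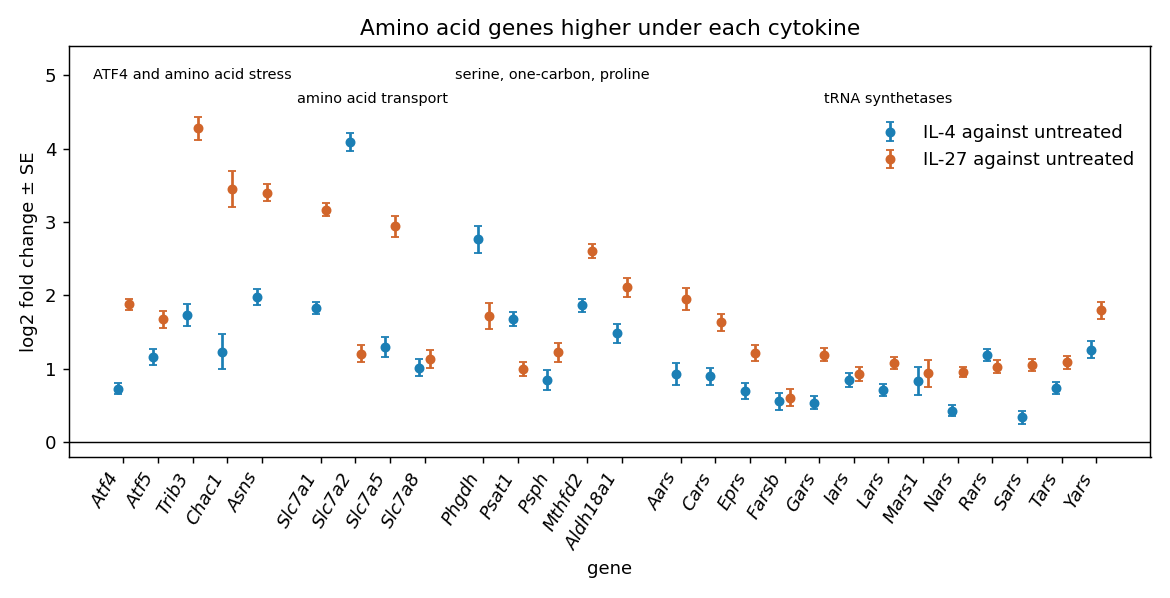
Log2 fold change ± standard error against untreated for amino acid genes higher under each cytokine (IL-4 blue, IL-27 orange; 3 libraries a group), in 4 groups along the x axis. Trib3, Chac1, Asns, Slc7a1 and Slc7a5 lie higher under IL-27, while Slc7a2, Phgdh and Psat1 lie higher under IL-4.

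Several amino acid importers rose too. Slc7a1, the main carrier of arginine and lysine in most cells, was at 21.7, 19.6 and 21.2 CPM untreated, 78.7, 71.5 and 71.96 CPM with IL-4 and 192, 183 and 188 CPM with IL-27. Every treated library was above every untreated one, and the rise was 3.55-fold under IL-4 and 9.001-fold under IL-27. Slc7a2, the inducible carrier of the same amino acids, showed the reverse order, at 25.3, 19.04 and 25.2 CPM untreated, 383, 408 and 396 CPM with IL-4 and 56.8, 51.9 and 52.02 CPM with IL-27. It rose by 4.09 ± 0.13 under IL-4 and 1.21 ± 0.11 under IL-27, and the direct test between cytokines gave -2.88 ± 0.12 (edgeR adjusted p = 1.16e-07). Slc7a5, the carrier of large neutral amino acids, went from 13.3 ± 0.8398 to 32.9 ± 6.45 and 102 ± 5.18 CPM, and its relative Slc7a8 from 106 ± 10.9 to 214 ± 29.5 and 233 ± 14.7 CPM. In a list of 22 amino acid transporters, also chosen after the values had been seen, 5 were higher and 2 lower under each cytokine. One of those lower was Slc43a2, another carrier of large neutral amino acids, which fell by 0.99 ± 0.17 under IL-4 and 1.10 ± 0.17 under IL-27.

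Serine and one-carbon genes make serine from a glycolytic intermediate and pass its carbon to folate and nucleotides. Of 28 tested members 9 were higher under each cytokine and 0 lower, and 7 of the 9 kept their call without any 1 library. Phgdh, the first enzyme of serine synthesis, was at 12.4, 13.7 and 11.8 CPM untreated, 115, 73.95 and 69.6 CPM with IL-4 and 43.6, 40.9 and 40.9 CPM with IL-27. IL-4 replicate 1, a library that stands apart, was the highest, and every treated library was above every untreated one. Without untreated replicate 2 and IL-4 replicate 1 the log2 fold change was 2.57 under IL-4 and 1.78 under IL-27, beside 2.77 ± 0.18 and 1.72 ± 0.18 with them. Psat1 and Psph, the next enzymes, rose by 1.68 ± 0.10 and 0.85 ± 0.13 under IL-4 and by 1.00 ± 0.10 and 1.23 ± 0.13 under IL-27. Mthfd2, a mitochondrial folate enzyme, stood at 22.7, 25.8 and 26.7 CPM untreated, 97.5, 89.8 and 86.5 CPM with IL-4 and 155, 152 and 151 CPM with IL-27. The groups did not overlap, and the rise was 3.64-fold under IL-4 (edgeR adjusted p = 9.77e-07) and 6.09-fold under IL-27 (edgeR adjusted p = 2.18e-07). Shmt2, Mthfd1l, Ppat, Umps and Ctps were the other members called. The list is not all of 1 direction, since 4 further members were higher under IL-4 and lower under IL-27 and 1 the reverse.

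Arginine and polyamine genes gave 6 higher and 1 lower under each cytokine among 23 tested, and 8 and 2 without the libraries that stand apart. Beside Slc7a1 and Slc7a2 these held Aldh18a1, which makes proline and ornithine precursors from glutamate, at 10.8 ± 0.729 CPM untreated, 30.1 ± 4.76 CPM under IL-4 and 46.5 ± 2.61 CPM under IL-27. Odc1, the first enzyme of polyamine synthesis, rose by 0.87 ± 0.16 and 1.33 ± 0.16. Oaz2, whose protein restrains ornithine decarboxylase, was the member lower under each. Arg1, the arginase that marks alternative activation, went in opposite directions, at 5.26 ± 0.827 CPM untreated, 472 ± 26.3 CPM under IL-4 and 0.109 ± 0.166 CPM under IL-27. Its untreated level was 1.09% of the IL-4 level, and whether reads of the IL-4 libraries are part of it was not tested.

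Some growth genes were higher under both cytokines as well. Ribosome biogenesis and Myc genes had 17 of 37 tested members higher under each cytokine and 1 lower (Mxd1, a repressor of Myc targets). Over all genes tested the shares were 3.23% and 3.74%. The list had a median log2 fold change of 0.60 under IL-4 and 0.46 under IL-27. Of the 17, 10 kept their call without any 1 library, and the Mxd1 call did not hold without each single library. Without untreated replicate 2 and IL-4 replicate 1 the count was 26 higher and 2 lower. Nolc1, a nucleolar phosphoprotein, was at 38.3, 28.6 and 39.98 CPM untreated, 56.8, 68.8 and 69.3 CPM with IL-4 and 71.6, 71.3 and 74.5 CPM with IL-27. Its lowest value was in untreated replicate 2, and the groups did not overlap between untreated and treated. Gar1 and Nop56, parts of the particles that modify ribosomal RNA, rose by 1.03 ± 0.11 and 1.01 ± 0.11 under IL-4 and 0.75 ± 0.11 and 0.74 ± 0.11 under IL-27. Myc itself passed for IL-4 only, at 17.7 ± 2.36 CPM untreated, 73.1 ± 9.78 CPM under IL-4 and 20.8 ± 1.46 CPM under IL-27 (edgeR adjusted p = 6.40e-06 and 0.217). Of 38 cell cycle genes 2 were higher under each (3.23% of all genes tested were), the G1 genes Ccnd1 (cyclin D1) and Cdk4, its kinase partner. Without the libraries that stand apart, 5 were higher and 2 lower, beside 1011 and 1079 of 12574 genes tested. With all libraries, 22 others were higher under IL-4 and lower under IL-27, as were 393 of all 12587 genes tested. Ccnd1 stood at 46.6, 43.7 and 49.5 CPM untreated, 139, 140.1 and 139 CPM with IL-4 and 110.1, 93.3 and 96.4 CPM with IL-27. All treated libraries were above untreated, and the rise was 2.99-fold and 2.14-fold.

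Among all genes with a mean of at least 5 CPM, the 12 with the largest shared rise were Il1rl1, Asns, Socs1, Mthfd2, Slc7a1, Sod3, Trib3, Phgdh, Bcar3, Pmepa1, Itgb3 and Klf4, ranked by the smaller of their 2 fold changes, with treated and untreated libraries not overlapping by the rule of choice. All 12 kept their call without any 1 library. Il1rl1, the IL-33 receptor ST2, led them at 0.945, 0.482 and 0.502 CPM untreated, 7.95, 11.7 and 10.5 CPM with IL-4 and 10.04, 3.94 and 5.94 CPM with IL-27. Untreated cells were under 1 CPM and IL-27 libraries spread from 3.94 to 10.04 CPM, and the rise was 3.95 ± 0.40 under IL-4 and 3.36 ± 0.40 under IL-27. Socs1, the feedback inhibitor of JAK kinases, was at 1.95, 1.897 and 3.24 CPM untreated, 34.3, 28.2 and 37.7 CPM with IL-4 and 9.08, 8.77 and 8.07 CPM with IL-27. It rose 14.1-fold under IL-4 and 3.65-fold under IL-27 (edgeR adjusted p = 2.20e-06 and 1.25e-04), and the cytokines differed by -1.95 ± 0.19. Klf4, a transcription factor of alternative activation, was at 7.76, 7.86 and 8.82 CPM untreated, 48.6, 52.03 and 51.1 CPM with IL-4 and 23.4, 18.8 and 26.5 CPM with IL-27. It rose in every treated library, more under IL-4 (2.63 ± 0.14) than under IL-27 (1.49 ± 0.13; edgeR adjusted p of the difference = 6.92e-05).

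**Figure D3:**
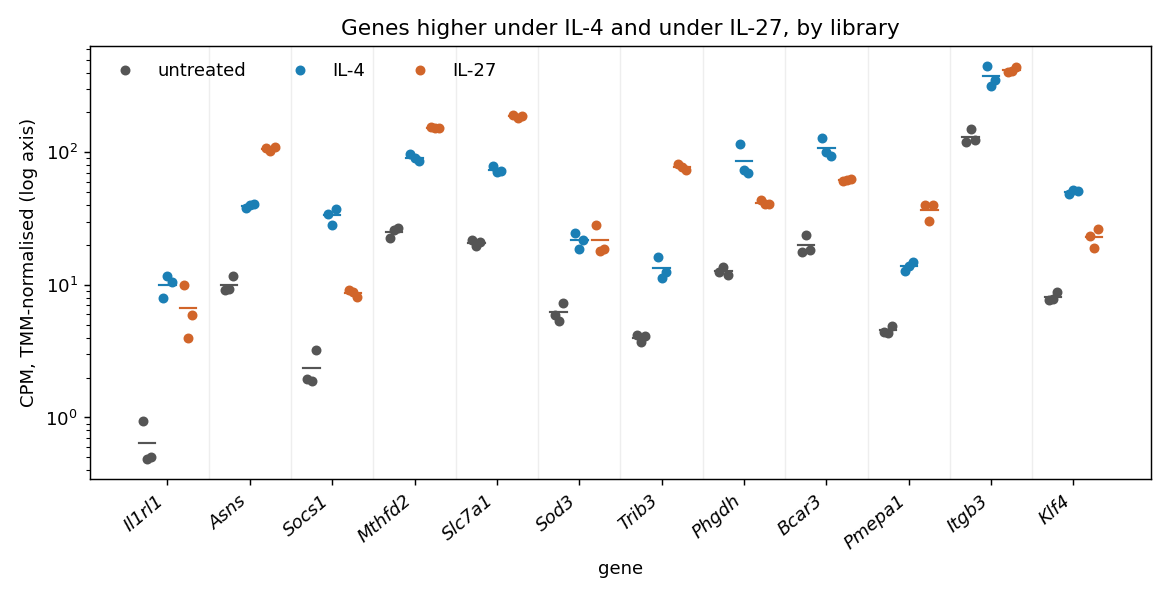
CPM in each of the 9 libraries on a log axis for the 12 genes with the largest rise under each cytokine and a mean of at least 5 CPM; each point is a library. In all 12 the 6 treated libraries lie above the 3 untreated libraries, and Asns, Trib3, Slc7a1 and Pmepa1 are highest under IL-27 while Socs1, Phgdh, Bcar3 and Klf4 are highest under IL-4.

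Sod3, the extracellular superoxide dismutase, rose by nearly the same amount, 1.81 ± 0.21 under IL-4 and 1.80 ± 0.21 under IL-27, to 21.7 ± 2.98 and 21.7 ± 5.92 CPM from 6.197 ± 1.01 CPM. Itgb3, the beta 3 integrin chain, was at 120.0, 149 and 125 CPM untreated, 451, 316 and 354 CPM with IL-4 and 405, 412 and 442 CPM with IL-27. Treated and untreated libraries did not overlap, and the cytokines did not pass the direct test there (0.17 ± 0.14, edgeR adjusted p = 0.356). Pmepa1, a feedback inhibitor of TGF-beta signalling, rose 3.05-fold and 8.08-fold, and Bcar3, an adaptor of integrin signalling, 5.398-fold and 3.08-fold. Cd274, the PD-1 ligand PD-L1, was higher under each cytokine with very unequal size, at 98.2, 108 and 104 CPM untreated, 159, 169 and 156 CPM with IL-4 and 629, 686 and 670.0 CPM with IL-27. The IL-4 libraries were all above untreated (0.64 ± 0.08), yet the IL-27 rise was far larger (2.68 ± 0.08), and the difference was 2.04 ± 0.08 (edgeR adjusted p = 9.72e-08).

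Of the other cytokine feedback genes, Socs3, an inhibitor of gp130 signalling, rose under IL-27 (1.97 ± 0.17) and had -0.22 ± 0.17 under IL-4, so it passed in the mean through IL-27. Irf1, an interferon response factor, had 0.00 ± 0.14 under IL-4 and rose by 2.32 ± 0.15 under IL-27. Cish, a STAT5 and STAT6 feedback gene, went in opposite directions, at 0.856 ± 0.211 CPM untreated, 41.9 ± 7.66 CPM under IL-4 and 0.201 ± 0.0562 CPM under IL-27. Il6st, the gp130 chain, rose under IL-4 (1.48 ± 0.08) and had -0.02 ± 0.08 under IL-27. Il4ra fell by 0.39 ± 0.12 under IL-4 (edgeR adjusted p = 0.0443) and rose by 0.58 ± 0.12 under IL-27, and Il27ra rose by 1.31 ± 0.22 under IL-4 with -0.20 ± 0.22 under IL-27. Neither Il27ra, Bcl6, a transcriptional repressor, nor Il10, the anti-inflammatory cytokine, passed in the mean (edgeR adjusted p = 0.0719, 0.193 and 0.226).

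Receptors for other cytokines moved both ways, with 3 of 32 tested chains higher and 4 lower under each cytokine, and all 7 kept their call without any 1 library. Il1r1, the signalling receptor of IL-1, rose from 1.08 ± 0.453 to 6.51 ± 1.63 and 2.94 ± 0.785 CPM. Il21r, the IL-21 receptor, rose by 1.37 ± 0.23 and 1.05 ± 0.23, and the third was Csf2rb, the shared chain of the GM-CSF, IL-3 and IL-5 receptors. Il10ra, the ligand-binding chain for IL-10, fell, with 164, 210.1 and 166 CPM untreated, 96.4, 83.9 and 75.8 CPM with IL-4 and 86.5, 91.2 and 87.9 CPM with IL-27. Every treated library was below every untreated one, and the falls of 1.08 ± 0.12 and 1.03 ± 0.12 did not pass the direct test between cytokines (edgeR adjusted p = 0.759). Csf3r, the G-CSF receptor, fell by 0.91 ± 0.12 and 1.17 ± 0.12, and Il6ra and Tnfrsf1b were lower as well. The chains lower under each numbered 7 without untreated replicate 2 and IL-4 replicate 1, beside 1079 of 12574 genes tested.

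Of 27 alternative activation markers tested, 23 were higher under IL-4 (12.9% of all genes tested were). Of the 23, 4 were higher under each (Slc7a2, Klf4, Ccl22 and Tgm2), beside 3.23% of all genes tested. Another 7 went up under IL-4 and down under IL-27. Without the libraries that stand apart, 6 were higher and 1 lower under each, beside 1011 and 1079 of 12574 genes tested. Tgm2, a transglutaminase, was at 194, 307 and 231 CPM untreated, 704, 431 and 475 CPM with IL-4 and 865, 822 and 879 CPM with IL-27. Untreated libraries reached 307 CPM and the lowest treated library was at 431 CPM. Ccl22, a chemokine for T cells carrying Ccr4, stayed low, at 0.518 ± 0.188, 1.82 ± 0.285 and 2.02 ± 0.531 CPM.

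Among genes with a mean of at least 5 CPM, the iron exporter Slc40a1 and the prostaglandin-degrading enzyme Hpgd had the largest shared falls. Ranked in the same way, the first 12 were Slc40a1, Hpgd, Pou2f2, Arl5c, Dbp, Frat2, Zfyve28, Slc5a3, Eva1b, Ms4a6b, Bmf and Abhd15, and all kept their call without any 1 library. Slc40a1, ferroportin, the exporter of iron from cells, was at 158, 152 and 172 CPM untreated, 10.8, 16.6 and 12.1 CPM with IL-4 and 19.01, 17.8 and 18.1 CPM with IL-27. The fall was 12.2-fold under IL-4 (edgeR adjusted p = 4.29e-07) and 8.78-fold under IL-27 (edgeR adjusted p = 1.19e-06), and no treated library exceeded 19.01 CPM. Hpgd, the enzyme that inactivates prostaglandins, was at 90.9, 69.5 and 100.1 CPM untreated, 12.3, 19.2 and 16.7 CPM with IL-4 and 4.39, 3.34 and 2.93 CPM with IL-27. It fell by 2.43 ± 0.21 under IL-4 and by 4.61 ± 0.23 under IL-27, and was lower under IL-27 than under IL-4 by the direct test (-2.18 ± 0.22, edgeR adjusted p = 3.12e-05). Per length, on the deposited FPKM scale, untreated levels of these genes were close, 49.8 FPKM for Slc40a1 and 50.7 FPKM for Hpgd, and fell to 4.22 and 9.68 FPKM under IL-4 and 5.58 and 2.03 FPKM under IL-27.

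**Figure D4:**
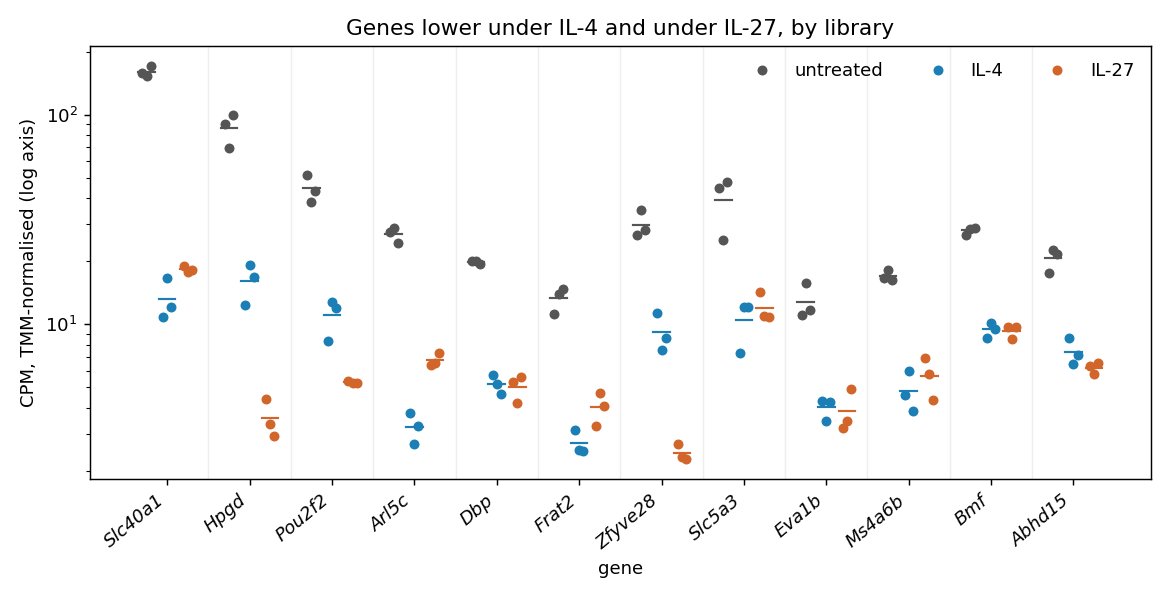
CPM in each of the 9 libraries on a log axis for the 12 genes with the largest fall under each cytokine and a mean of at least 5 CPM; each point is a library. In all 12 the 6 treated libraries lie below the 3 untreated libraries, with Hpgd, Pou2f2 and Zfyve28 lowest under IL-27 and Slc40a1 and Arl5c lowest under IL-4.

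Pou2f2, the octamer factor Oct-2, was at 51.9, 38.3 and 43.5 CPM untreated, 8.33, 12.8 and 11.98 CPM with IL-4 and 5.37, 5.27 and 5.22 CPM with IL-27. The IL-27 libraries lay within 5.22 to 5.37 CPM, below all IL-4 libraries. Arl5c, a small GTPase of the ARF-like family, fell by 3.06 ± 0.15 and 1.99 ± 0.14. Zfyve28, a FYVE-domain protein, fell by 1.71 ± 0.17 and 3.63 ± 0.19. Frat2, which binds GSK3 in Wnt signalling, went from 13.3 ± 1.88 to 2.701 ± 0.379 and 4.01 ± 0.723 CPM. Bmf, a BH3-only protein that promotes cell death, was at 26.8, 28.6 and 28.9 CPM untreated, 8.62, 10.2 and 9.54 CPM with IL-4 and 9.68, 8.47 and 9.68 CPM with IL-27. It fell by 1.57 ± 0.11 under IL-4 and by 1.60 ± 0.11 under IL-27. Slc5a3, the inositol transporter, was more variable, at 44.6, 25.4 and 48.02 CPM untreated, 7.28, 12.1 and 12.1 CPM with IL-4 and 14.2, 10.9 and 10.9 CPM with IL-27, with untreated replicate 2 the lowest of its group. Without untreated replicate 2 and IL-4 replicate 1, its log2 fold change was -1.93 under IL-4 and -1.95 under IL-27, beside -1.90 ± 0.27 and -1.71 ± 0.27 with them. Eva1b, Ms4a6b, a membrane protein of the MS4A family whose close copies may share its reads, and Abhd15 fell by 1.68 ± 0.21, 1.82 ± 0.20 and 1.49 ± 0.15 under IL-4 and by 1.73 ± 0.21, 1.58 ± 0.20 and 1.73 ± 0.15 under IL-27.

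Antioxidant and iron genes had 4 of 26 tested members lower under each cytokine and 0 higher. Beside Slc40a1 these were Gsr, glutathione reductase, which went from 135 ± 11.9 to 64.2 ± 7.89 and 68.6 ± 5.55 CPM, Cat, catalase, from 357 ± 14.1 to 209 ± 7.36 and 193 ± 3.099 CPM, and Sod1, a superoxide dismutase. The Sod1 call was lost when any one of 7 libraries was left out, with an edgeR adjusted p for IL-4 of up to 0.141, and IL-4 replicate 1, at 177 CPM, lay above untreated replicate 1, at 174 CPM. The count was 7 without untreated replicate 2 and IL-4 replicate 1. Sod3, the extracellular superoxide dismutase, is not in this list and was higher under each cytokine, as given above. In the list of lipid mediators, Ptger4, a receptor for prostaglandin E2, was the member lower under each cytokine beside Hpgd. Its log2 fold changes were -0.77 ± 0.13 and -0.69 ± 0.13. Of the 28 tested 2 were lower and 0 higher under each. Without untreated replicate 2 and IL-4 replicate 1, 4 were lower and 3 higher, beside 1079 and 1011 of 12574 genes tested.

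Some antiviral genes that type I interferon induces were lower under both cytokines. Of 39 tested 8 were lower under each cytokine and 0 higher, beside 3.74% and 3.23% of all genes tested. Under IL-4 18 were lower (12% of all genes tested). Under IL-27 10 were lower (15.1% of all) and 8 higher (14% of all). The median log2 fold change was -0.60 under IL-4 and -0.17 under IL-27. Of the 8 lower under each, 4 kept their call without any 1 library. Without untreated replicate 2 and IL-4 replicate 1 the count was 13, beside 1079 of 12574 genes tested. Oas2, an enzyme that senses double-stranded RNA, was at 8.98, 10.3 and 7.98 CPM untreated, 1.55, 2.397 and 2.11 CPM with IL-4 and 0.764, 1.41 and 1.204 CPM with IL-27. No treated library overlapped the untreated ones, and the fall was 2.16 ± 0.24 under IL-4 and 3.01 ± 0.26 under IL-27 (edgeR adjusted p = 1.74e-04 and 2.23e-05). Oas3, of the same family, fell by 1.51 ± 0.16 and 1.25 ± 0.16, and reads of Oas genes may be shared between copies, which makes their single values uncertain. Rtp4, an interferon-induced chaperone, was at 7.42, 10.5 and 7.56 CPM untreated, 1.44, 1.698 and 1.07 CPM with IL-4 and 1.85, 1.99 and 2.11 CPM with IL-27. Treated and untreated libraries did not overlap. Irf7, the amplifier of the type I interferon response, had -1.04 ± 0.33 under IL-4 (edgeR adjusted p = 0.0438) and -1.45 ± 0.33 under IL-27, and lost its shared call when any one of 7 of the 9 libraries was left out, with an edgeR adjusted p of up to 0.133 for IL-4.

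Some sensors of microbes and inflammatory genes were lower too. Of 33 pattern receptors and their partners 6 were lower under each cytokine and 1, Clec5a, higher (3.74% and 3.23% of all genes tested). Of the 6, 3 kept their call without any 1 library. The count was 11 lower and 1 higher without untreated replicate 2 and IL-4 replicate 1, beside 1079 and 1011 of 12574 genes tested. Cd14, the co-receptor for lipopolysaccharide, was at 344, 365 and 369 CPM untreated, 60.6, 54.7 and 58.1 CPM with IL-4 and 223, 203 and 208 CPM with IL-27. The 3 groups did not overlap, and the fall was 6.21-fold under IL-4 and 1.698-fold under IL-27. Mefv, the inflammasome protein pyrin, fell more under IL-27, by 1.15 ± 0.15 and 2.48 ± 0.16, and Nlrc4, an inflammasome sensor, by 0.85 ± 0.17 and 0.78 ± 0.17. Tlr2, by contrast, fell by 2.87 ± 0.17 under IL-4 and had -0.44 ± 0.16 under IL-27 (edgeR adjusted p = 0.0606), so its fall in the mean passed through IL-4. Of 30 inflammatory and NF-kappa-B genes 4 were lower under each and 1, Cd44, higher (5 and 3 without the libraries that stand apart). Il1b, which encodes IL-1 beta, was at 2.73, 2.41 and 2.34 CPM untreated, 0, 0.1997 and 0.229 CPM with IL-4 and 0, 0 and 0.0274 CPM with IL-27. With so few counts in the treated libraries no fold is given for it. Nfkbie and Nfkbiz, which the gene names call NF-kappa-B inhibitors epsilon and zeta, fell by 0.89 ± 0.15 and 2.36 ± 0.21 under IL-4. Under IL-27 these 2 genes fell by 0.67 ± 0.15 and 0.57 ± 0.19. The Nfkbiz call for IL-27 (edgeR adjusted p = 0.0472) was lost without any of 6 single libraries, with an adjusted p of up to 0.154.

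Chemokine receptors were among the genes that fell. Cx3cr1, the fractalkine receptor, was at 41.2, 39.5 and 47.7 CPM untreated, 6.72, 6.99 and 5.52 CPM with IL-4 and 23.8, 22.7 and 24.5 CPM with IL-27. The 3 groups did not overlap, and it fell by 2.74 ± 0.13 under IL-4 and by 0.85 ± 0.12 under IL-27. C5ar1, the receptor of complement C5a, fell by 0.95 ± 0.14 and 1.12 ± 0.14, while Ccr1, a chemokine receptor, rose by 0.73 ± 0.17 and 1.18 ± 0.17. Of 26 chemokines and receptors tested, 2 were higher and 3 lower under each cytokine (3.23% and 3.74% of all genes tested). Without the libraries that stand apart, 4 were higher and 4 lower, beside 1011 and 1079 of 12574 genes tested.

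Macrophage identity genes had 5 of 40 tested members lower and 2 higher under each (3.74% and 3.23% of all genes tested). Without untreated replicate 2 and IL-4 replicate 1, 11 were lower and 4 higher, beside 1079 and 1011 of 12574 genes tested. Adgre4, an adhesion receptor of macrophages, was at 14.9, 10.03 and 15.1 CPM untreated, 0.147, 0.649 and 0.0509 CPM with IL-4 and 1.01, 0.993 and 1.31 CPM with IL-27. The highest treated library, at 1.31 CPM, was far below the lowest untreated one. Maf, a transcription factor of resident macrophages, was at 173, 140.4 and 175 CPM untreated, 43.9, 60.2 and 57.05 CPM with IL-4 and 71.1, 61.5 and 57.2 CPM with IL-27. It fell by 1.60 ± 0.15 and 1.36 ± 0.14, and Mertk, a receptor for dying cells, by 0.79 ± 0.09 and 1.17 ± 0.09. Fcgr2b, the inhibitory Fc receptor, rose by 1.64 ± 0.11 and 0.67 ± 0.11. Fcgr1, the high-affinity Fc receptor, fell by 1.42 ± 0.11 under IL-4 and 0.34 ± 0.11 under IL-27, and the IL-27 call (edgeR adjusted p = 0.0445) was lost without any of 7 libraries, with an adjusted p of up to 0.151. Fcgr1 and Mertk are also 2 of the 8 markers by which macrophages were recognised above. The summed marker level, set mostly by Lyz2, was below untreated in every IL-4 library and within the untreated range in every IL-27 library, and its part in these falls was not tested.

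**Figure D5:**
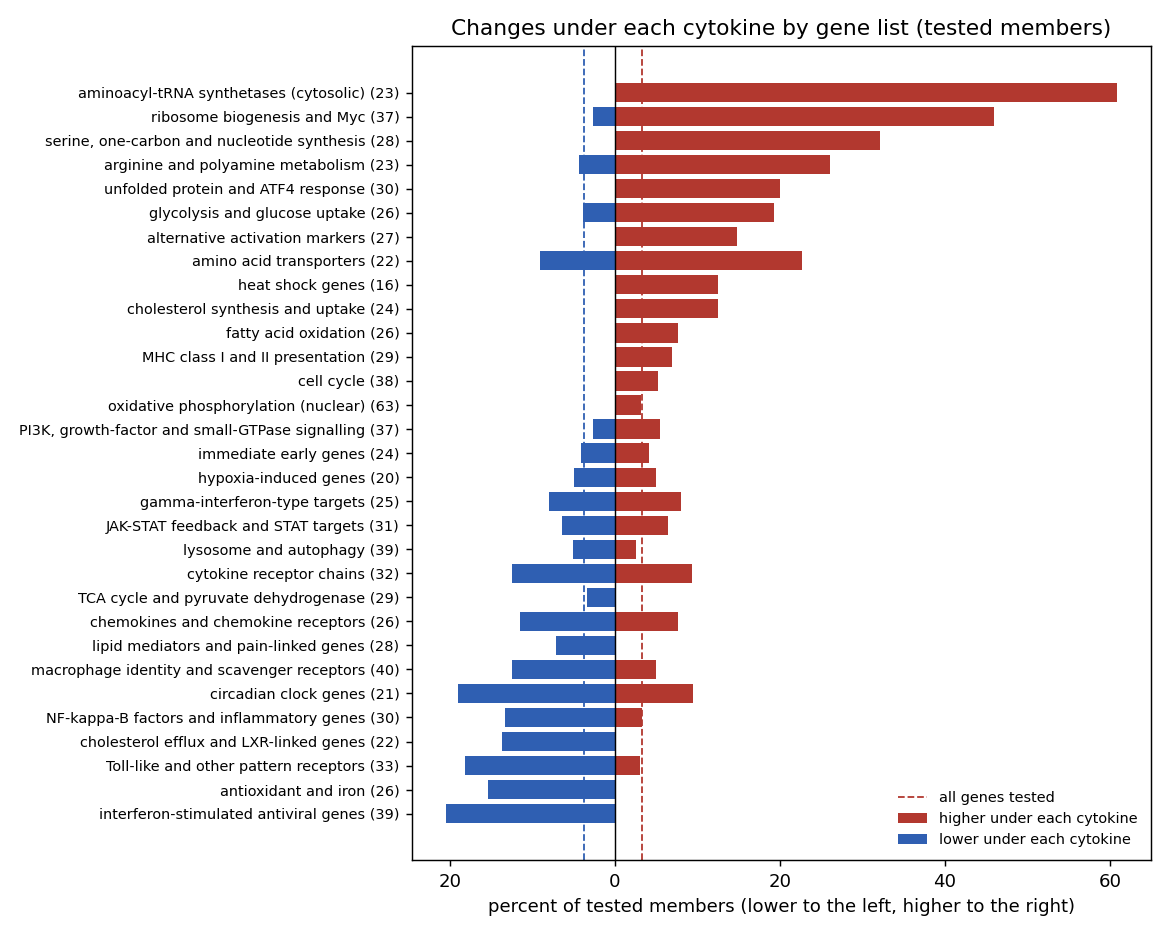
Percent of tested members of each gene list higher (red, right) or lower (blue, left) under each cytokine; the number tested stands after each name and the dashed lines mark all genes tested (3.23% higher, 3.74% lower). The synthetase, transporter and clock lists were chosen after the values were seen; antiviral genes have 8 of 39 members lower and 0 higher.

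Among lipid genes, those of cholesterol efflux had 3 of 22 tested members lower and 0 higher under each cytokine, and all 3 kept their call without any 1 library. The count was 6 lower and 1 higher without untreated replicate 2 and IL-4 replicate 1, beside 1079 and 1011 of 12574 genes tested. Abca1, the exporter of cholesterol to lipoproteins, was at 213, 239 and 206 CPM untreated, 78.8, 79.8 and 73.5 CPM with IL-4 and 99.6, 97.8 and 109 CPM with IL-27. The 3 groups did not overlap, and the fall was 2.84-fold under IL-4 and 2.15-fold under IL-27. Mylip, a ubiquitin ligase that acts on the LDL receptor, fell by 1.80 ± 0.09 and 0.91 ± 0.09, and Abca9, a related transporter, by 1.77 ± 0.18 and 1.14 ± 0.17. Of 24 cholesterol synthesis genes, 3 were higher and 0 lower under each. Leaving out untreated replicate 2 and IL-4 replicate 1, 7 of these genes were higher and 1 lower.

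Glycolysis genes had 5 of 26 higher and 1 lower under each cytokine. Without the libraries that stand apart these counts were 6 and 3, beside 1011 and 1079 of 12574 genes tested. Slc16a1, a lactate carrier, rose from 21.1 ± 3.39 to 40.2 ± 4.88 and 58.1 ± 2.71 CPM, and Pfkp, a phosphofructokinase, from 65.1 ± 6.05 to 136 ± 16.5 and 112 ± 2.07 CPM. Ldha, lactate dehydrogenase A, was at 496, 699.7 and 507 CPM untreated, 1269, 875 and 853 CPM with IL-4 and 945, 964 and 955 CPM with IL-27. The highest untreated and the highest IL-4 value were in the libraries that stand apart, and treated and untreated libraries did not overlap. Of 29 genes of the tricarboxylic acid cycle 0 were higher and 1 lower under each, Idh1, the cytosolic isocitrate dehydrogenase (-0.60 ± 0.09 and -1.45 ± 0.09). Of 63 nuclear genes of oxidative phosphorylation 2 were higher and 0 lower under each, which is near the background of 3.23% and 3.74%, and 26 were higher under IL-4. Leaving out the libraries that stand apart gave 2 higher and 1 lower for the tricarboxylic acid cycle and 4 and 1 for oxidative phosphorylation. Cycs, cytochrome c, was one of the 2, with 0.88 ± 0.11 and 0.51 ± 0.11. Ppargc1b, a coactivator of mitochondrial genes, rose from 6.94 ± 0.429 to 21.9 ± 2.57 and 12.4 ± 0.631 CPM.

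In the remaining lists at most 2 members passed in either direction under each cytokine. Of 39 lysosome and autophagy genes 1 was higher and 2 lower, of 20 hypoxia genes 1 and 1, of 24 immediate early genes 1 and 1, of 16 heat shock genes 2 and 0, and of 26 fatty acid oxidation genes 2 and 0. Without untreated replicate 2 and IL-4 replicate 1, these counts were 3 and 4 for lysosome, 3 and 2 for hypoxia, 5 and 4 for immediate early, 4 and 0 for heat shock and 4 and 1 for fatty acid oxidation genes. Of 31 JAK-STAT genes 2 were higher and 2 lower, and of 25 gamma-interferon-type targets 2 and 2. Of 29 MHC genes 2 were higher and 0 lower, and neither call, of H2-Aa, an MHC class II chain, or Psme2, a proteasome activator subunit, held without each single library. Leaving out both libraries that stand apart, 7 MHC genes were higher under each. Among 37 genes of PI3K and growth-factor signalling 3 were higher and 6 lower without both libraries, beside 1011 and 1079 of 12574 genes. With all libraries 2 were higher and 1 lower, close to the background of 3.23% and 3.74%. Those higher were Dusp4 and Dusp2, phosphatases that switch off MAP kinases, with rises of 2.15 ± 0.15 and 0.57 ± 0.13 under IL-4 and 0.82 ± 0.14 and 0.67 ± 0.13 under IL-27. Ctsl, a lysosomal protease, was at 986, 1104 and 995 CPM untreated, 1434, 1376 and 1329 CPM with IL-4 and 1835, 1875 and 1749 CPM with IL-27. All treated libraries were above untreated, by 0.42 ± 0.08 and 0.82 ± 0.08.

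The mean of both cytokines hides changes in opposite directions. Past the threshold in opposite directions were 705 genes (5.6% of those tested), 393 higher under IL-4 and lower under IL-27 and 312 the reverse. Their number was 1618 without untreated replicate 2 and IL-4 replicate 1, and 469 without untreated replicate 1 alone. In the mean such genes can vanish. Retnla, a secreted resistin-like protein, had a mean log2 change of 0.00 (edgeR adjusted p = 0.881) while it stood at 1.56, 1.02 and 0.809 CPM untreated, 116, 112 and 79.1 CPM with IL-4 and 0.0273, 0 and 0 CPM with IL-27. Chil3, a chitinase-like protein, was at 26.2, 21.9 and 26.9 CPM untreated, 2088, 2413 and 2138 CPM with IL-4 and 1.96, 0.579 and 0.574 CPM with IL-27. It passed as higher in the mean (edgeR adjusted p = 0.0338) although it fell under IL-27. Calhm6, an ion channel subunit, and Clec4e, the receptor Mincle, went the other way, Calhm6 with -2.48 ± 0.22 and 2.45 ± 0.19 and Clec4e with -2.66 ± 0.32 and 2.14 ± 0.28. Cdo1, which oxidises cysteine, and Efcc1 had -1.73 ± 0.20 and -1.83 ± 0.45 under IL-4 and 2.43 ± 0.18 and 3.59 ± 0.36 under IL-27. The untreated libraries held 1.09% of the IL-4 level of Arg1, 1.101% of that of Chil3, 1.08% of that of Retnla and 0.992% of that of Rnase2a, a secreted ribonuclease. In the IL-27 libraries the shares were 0.0223%, 0.0450%, 0.00861% and 0%. Whether reads of the IL-4 libraries are part of these untreated levels was not tested beyond a subtraction. Subtracting 0.843% of the IL-4 level from untreated counts ended the opposite calls of Retnla and Rnase2a. Counts of near-identical copies of Chil3, Retnla and Rnase2a may be shared, so their values are uncertain.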

How the data were processed

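PolyA RNA, extracted with TRIzol and prepared with a VAHTS Universal V6 kit, was sequenced from all samples, per the labels' protocols. As deposited, counts are whole reads per gene, for which the submitters' processing notes name fastp, HISAT2, HTSeq and GRCm39 without versions. The deposited FPKM values are the same counts divided by gene length and library total by the authors: the length they imply was whole within 1e-03 bases for 16200 genes (100%). Annotation, strand setting and the treatment of shared reads are not stated there, so overlapping and antisense genes cannot be told apart.

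Counts were fitted with edgeR 4.0.16 in R 4.3.3 on all 9 libraries, with a term for group, TMM factors (0.918 to 1.06) and filterByExpr at a minimum count of 10, which left 12587 of 16200 genes. The mean contrast, each cytokine against untreated and IL-27 against IL-4 were tested by quasi-likelihood with Benjamini-Hochberg adjustment over all genes tested and a threshold of 0.05. Libraries of a group varied with a common dispersion of 0.0272 (coefficient of variation 0.165). Standard errors are approximate and derive from the F statistic. The procedure was tested on simulated data. DESeq2 1.42.0 and the other alternatives are given in the closing section. Promoters came from RefSeq tables by gene symbol, with those of a chromosome left out.

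Members and lists were chosen with earlier results of these data known. Named genes are the 12 in each direction with the largest smaller fold change among shared genes with a mean of at least 5 CPM and no overlap, up to 4 shared members of each list, a fixed panel of signalling genes and 4 genes a direction among opposite changes. Members beyond these, the synthetase, transporter and clock lists, and the promoters shown were chosen after their values were seen. Some genes that the rule names are left out here.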

Additional observations from a re-analysis of the deposited data

How the results depend on the processing

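The counts of genes higher and lower in the mean (1176 and 1349), higher and lower under each cytokine (407 and 471), in opposite directions (705), and shared but different between cytokines (159 and 156) stayed within 1.5 times of these values with DESeq2's size factors, with the DESeq2 Wald test, with no filter or a filter of 1 CPM in 3 libraries, and with an IL-4 share subtracted from untreated counts (chosen after seeing the data). With only the groups of each comparison in the fit, the mean result was carried over from the main fit. Its 2 counts were therefore fixed there, and the shared calls reuse it. The remaining counts, from refitted comparisons, stayed within 1.5 times. Without untreated replicate 2 and IL-4 replicate 1 together they were 2639, 2622, 1014, 1082, 1618, 545 and 539. Tested against a 1.5-fold change with glmTreat they were 187, 220, 59, 76, 123, 16 and 11. With the 6 treated libraries as 1 group, which adds the difference between cytokines to the spread, 214 were higher and 262 lower.

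Without each library in turn the counts ranged from 802 to 1587, 949 to 1908, 278 to 531, 312 to 660, 469 to 798, 87 to 173 and 86 to 198. Those lower under each were 312 without IL-4 replicate 3, and those in opposite directions 469 without untreated replicate 1. The counts that differ between cytokines fell to between 87 and 102 (higher) without any 1 IL-27 library or IL-4 replicate 3 and to between 86 and 102 (lower) without any 1 IL-27 library or IL-4 replicates 2 or 3. With the replicate block the counts were 792, 948, 276, 321, 493, 100 and 94. Same-numbered libraries did not all deviate together (r from -0.797 to 0.666), and 4 of 9 libraries correlated best with their own number, so the numbers are not taken to pair the samples. The cause of these differences was not tested. The mean contrast of the named genes was compared across the alternatives, leaving out glmTreat, the treated libraries as 1 group and the fit of only the groups compared. It kept its call, passing or not, in 2752 cases, gained it in 43 and lost it in 64. A reversed direction was counted only where either fit passed, and was seen in 0 cases.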

Other observations

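Circadian clock genes, listed after their values had been seen, had 2 of 21 tested members higher and 4 lower under each cytokine, while 5 were lower under IL-4 and higher under IL-27. Dbp, a clock output factor that binds D-box sites, was at 20.1, 20.1 and 19.3 CPM untreated, 5.72, 5.17 and 4.66 CPM with IL-4 and 5.32, 4.19 and 5.58 CPM with IL-27. Every treated library was below every untreated one, by 1.94 ± 0.14 under IL-4 and 1.98 ± 0.14 under IL-27 (log2). Nfil3, a repressor at the same sites, was at 10.7, 9.91 and 10.9 CPM untreated, 63.2, 59.7 and 69.3 CPM with IL-4 and 20.2, 17.1 and 18.8 CPM with IL-27. It rose 6.103-fold under IL-4 and 1.78-fold under IL-27. Bhlhe40, a repressor of clock genes, rose from 208 ± 12.8 CPM (SD, n = 3) to 469 ± 16.4 and 542 ± 15.6 CPM, whereas its relative Bhlhe41 went from 185 ± 26.9 to 78.7 ± 12.1 and 465 ± 12.5 CPM. Per3, Per1 and Tef were also lower under each, and each lost that call without some single libraries, with an edgeR adjusted p for IL-27 of up to 0.111 (Per3), 0.0565 (Per1) and 0.0771 (Tef).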
